A study of Mus musculus with 10 samples.

Results

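Coagulation and complement factors are plasma proteins that the liver secretes, and their genes were examined in mouse hepatocytes that had received medium from adipocytes. The members were taken by gene symbol from a written list of 38 symbols. Of these, 37 had a row in the deposited count table of 56748 genes. The symbol C5 had none, and the mouse gene for that component, Hc, was itself on the list. All 37 passed the filter on low counts, 19 of them genes of coagulation and fibrinolysis and 18 of complement.

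The hepatocytes were primary cells of wild-type mice, kept overnight in adipocyte-conditioned medium, and their poly-A RNA was sequenced. In the Mttp_KO_CM group the medium came from adipocytes of A-Mttp-/- mice, which lack Mttp in adipose tissue, and in the Mttp_flox_CM group from adipocytes of Mttp f/f mice, which carry the floxed allele, with 5 libraries in each group. The adipocytes of both groups were differentiated in culture from inguinal stromal vascular cells of male mice after 6 months on an obesogenic diet, with 3 donors by the labels, and were starved overnight while the medium was collected. Their differentiation mixtures held IBMX, insulin, dexamethasone, indomethacin and rosiglitazone, so both media came from cells that had seen these agents. Mttp encodes the microsomal triglyceride transfer protein, and its deletion was in the donor adipocytes, not in the sequenced cells, so no gene in these libraries checks the group labels. The series is about adipose MTP deficiency, hepatic steatosis and PPARα activity. With 3 donors, the 5 libraries of a group cannot each have had medium from a donor of their own, so n = 5 counts libraries and not donors. The labels do not state whether each library had its own hepatocyte culture, so the p-values rest on variation among libraries that could be technical.

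Clotting runs through a chain of serine proteases that activate each other on membranes and end in thrombin, which turns fibrinogen into fibrin, while plasmin dissolves fibrin and plasma inhibitors hold both in check. Complement is a related protease system in which the classical, lectin and alternative pathways converge on cleavage of C3 and on the membrane attack complex. Hepatocytes are the main source of most of these plasma proteins, and several are raised in the acute phase response.

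Libraries held 14283517 to 17178131 counts in Mttp_KO_CM and 14199798 to 15950530 in Mttp_flox_CM, and 14183 genes were tested. Levels are given as CPM, counts scaled to library size with TMM factors, and changes as the log2 fold change of Mttp_KO_CM over Mttp_flox_CM with its standard error (SE) from edgeR's quasi-likelihood test. A gene is called changed at a Benjamini-Hochberg adjusted p under 0.05 over all genes tested. By that rule 36.4% of all genes tested were called, 18.2% higher and 18.1% lower, and the median log2 change of all genes was 0.00. The 12 hepatocyte markers checked took 5.43 ± 0.0658% of the counts in Mttp_KO_CM and 6.80 ± 0.126% in Mttp_flox_CM, while 14 endothelial markers took 0.115% in Mttp_KO_CM and 0.210% in Mttp_flox_CM and 14 macrophage markers less than that.

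Most members that changed were lower after medium from Mttp-deficient adipocytes, mostly by less than 1.5-fold. Of the 19 coagulation members 11 fell and 2 rose, and of the 18 complement members 7 fell and 3 rose. Of the 37 members, 5 rose and 18 fell, which is 62.2% called against 36.4% of all genes tested, 13.5% higher against 18.2% and 48.6% lower against 18.1%. Most members were more abundant than the median gene tested, and their shares were not compared with those of genes at a like level. The members that rose were F9, Cpb2, C4b, C3 and C9, at 1.07 to 1.23 times their level in Mttp_flox_CM, and those that fell stood at 0.450 to 0.951 times that level. In 18 members the libraries of the groups did not overlap, a pattern that 25.7% of all genes tested showed. Every Mttp_KO_CM library lay below every Mttp_flox_CM library in 15 of them, as in 12.7% of all genes tested, and above in F9, C3 and Vtn. The 3 members called with a change of 1.5-fold or more were C6, C4bp and Klkb1, all lower, a share near the background, since 7.47% of all genes tested met that rule in either direction and 5.05% downward. The median log2 change was -0.14 over the 19 coagulation members and 0.03 over the 18 complement members, against 0.00 over all genes tested. The complement median turned slightly negative, to -0.02 at the lowest, when libraries were scaled by their size alone or when Mttp_KO_CM replicate 1, replicate 3 or its unnumbered library, or Mttp_flox_CM replicate 4, was left out.

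**Figure D1:**
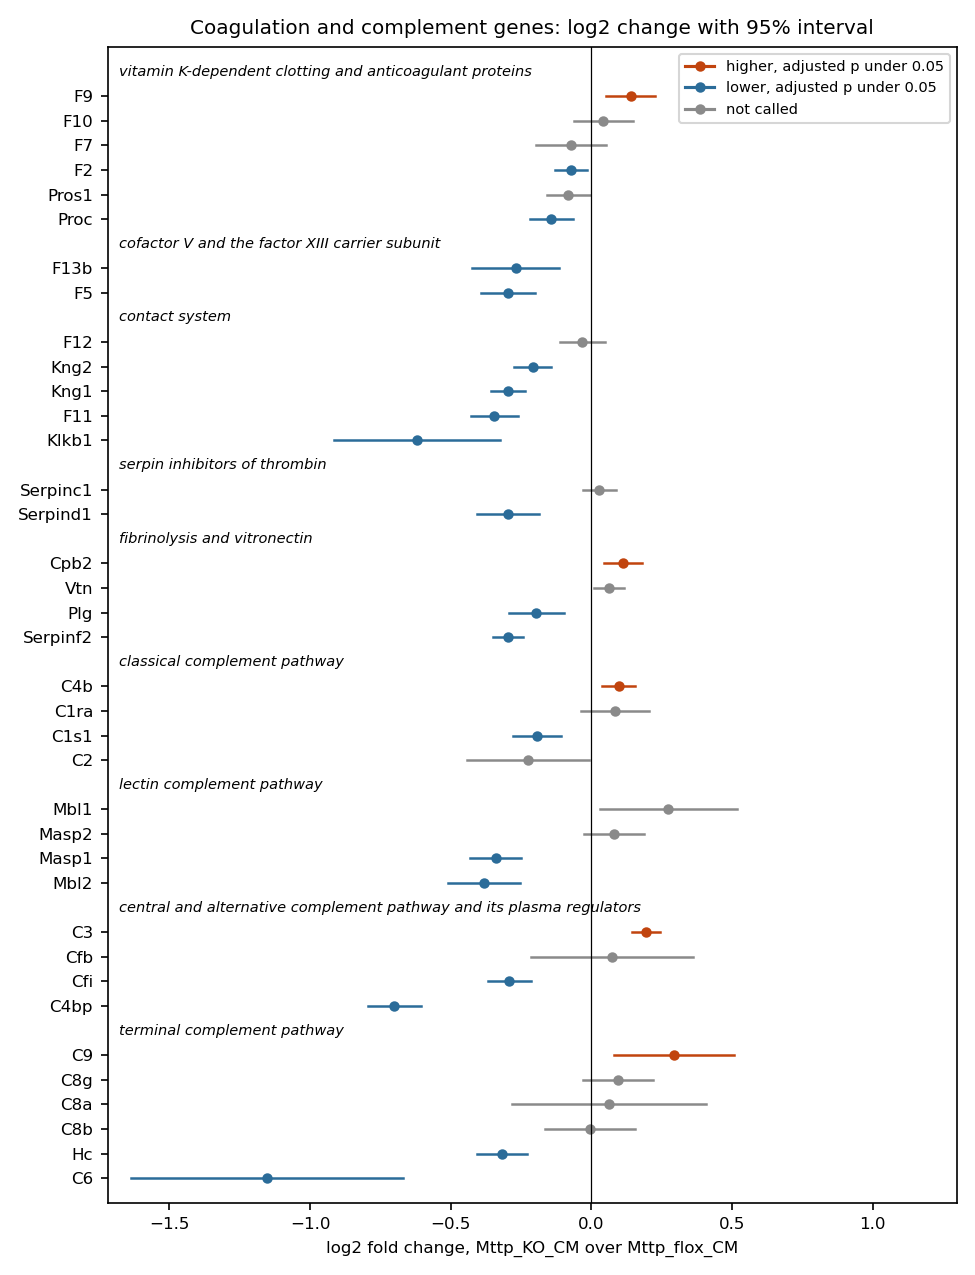
Each point is the log2 fold change of a member gene, Mttp_KO_CM over Mttp_flox_CM, on the x axis, with its 95% interval from edgeR (5 libraries a group), and genes are grouped by role down the page. Orange marks the 5 genes called higher, blue the 18 called lower and grey the 14 not called, with C6 farthest to the left at -1.15 and C9 farthest to the right at 0.29.

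The vitamin K-dependent proteins carry gamma-carboxylated glutamates that let them bind membranes, and of the 6 genes F9 rose, F2 and Proc fell and 3 were not called. F9 encodes factor IX, the protease of the tenase complex. Its promoter is shown because F9 was the only clotting protease gene among the members to rise, and capitals in it and in the promoters that follow mark exact matches to the motifs described further on. It is 300 bases of the plus strand of RefSeq assembly GRCm38.p6, chrX:59999214-59999513, from 250 bases before the gene's start.
F9: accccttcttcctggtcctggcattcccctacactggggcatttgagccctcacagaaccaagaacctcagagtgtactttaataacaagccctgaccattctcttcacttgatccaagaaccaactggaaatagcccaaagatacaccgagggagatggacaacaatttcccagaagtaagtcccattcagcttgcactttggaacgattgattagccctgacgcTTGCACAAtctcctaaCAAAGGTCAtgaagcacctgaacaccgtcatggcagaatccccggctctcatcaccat
F9 had 46.1, 47.4, 47.2, 46.3 and 49.3 CPM in Mttp_KO_CM, against 43.0, 45.1, 40.4, 42.7 and 43.2 CPM in Mttp_flox_CM, without overlap. The gene rose by a log2 change of 0.14 (SE 0.042, edgeR adjusted p = 0.011). The call on F9 was lost when both unnumbered libraries were left out (adjusted p = 0.0586) and when libraries were scaled by size alone (adjusted p = 0.0646), and over all 20 alternatives its adjusted p ran from 0.0078 to 0.0686. F2 encodes prothrombin, the precursor of thrombin, and had 426, 399.6, 429, 425 and 426 CPM in Mttp_KO_CM and 459, 445, 447, 430.3 and 433 CPM in Mttp_flox_CM. Its libraries did not overlap between the groups, but the step between the nearest was small, and its log2 change was -0.07 (SE 0.027, edgeR adjusted p = 0.040). The call on F2 was lost without Mttp_KO_CM replicate 2 (adjusted p = 0.112) and without Mttp_flox_CM replicate 1 (0.0887), replicate 2 (0.0607) or replicate 3 (0.0559). It was also lost with limma on log2(FPKM + 1) (0.0641) and log2(FPKM + 0.1) (0.0655), within a range of 0.0017 to 0.112 over the alternatives. Proc encodes protein C, the anticoagulant protease that inactivates factors Va and VIIIa. It averaged 88.4 ± 3.85 CPM in Mttp_KO_CM and 97.6 ± 2.93 CPM in Mttp_flox_CM (SD, n = 5 each) and fell by 9.4% (log2 -0.14, SE 0.037, edgeR adjusted p = 0.0038). The groups overlapped in Proc, since the unnumbered Mttp_KO_CM library, at 95.2 CPM, stood above the unnumbered Mttp_flox_CM library, at 94.7 CPM.

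The genes of factor VII, factor X and protein S were not called. F7, the protease that tissue factor switches on, had a log2 change of -0.07 with a 95% interval of -0.20 to 0.05. F10, the protease of the prothrombinase complex, had 0.04 with an interval of -0.06 to 0.15. Pros1, the cofactor of protein C, averaged 136 ± 4.25 CPM in Mttp_KO_CM and 144 ± 8.01 CPM in Mttp_flox_CM, with an interval of -0.16 to -0.01 and an edgeR adjusted p of 0.091. Pros1 was called lower without Mttp_flox_CM replicate 2 (adjusted p = 0.0451) or replicate 3 (0.0319), and with scaling by library size alone (0.0123) or by the upper quartile (0.0466), and its adjusted p ran from 0.0123 to 0.259 over the alternatives.

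Both the cofactor and the carrier gene fell. F5 encodes factor V, the cofactor of the prothrombinase complex, and had 105, 101, 91.6, 95.2 and 107 CPM in Mttp_KO_CM against 114, 121, 118, 126 and 135 CPM in Mttp_flox_CM. Every Mttp_KO_CM library was the lower, and F5 fell by 18.6% (log2 -0.30, SE 0.046, edgeR adjusted p = 1.3e-05). F13b encodes the subunit that carries the fibrin-crosslinking factor XIII in plasma. It fell to 16.4 ± 2.02 CPM in Mttp_KO_CM, against 19.7 ± 0.347 CPM in Mttp_flox_CM (log2 -0.27, SE 0.075, edgeR adjusted p = 0.0061), without overlap.

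The contact system starts clotting on charged surfaces and releases bradykinin, and 4 of its 5 genes fell without overlap between the groups. F11 encodes factor XI, which activates factor IX, and Klkb1 encodes plasma prekallikrein, which releases bradykinin from kininogen. The genes are close relatives and neighbours on chromosome 8, F11 at chr8:45694211-45715068 and Klkb1 at chr8:45719726-45747896 of GRCm39, with 4.657 kb between them. Their promoters are shown because the neighbours fell together and share a motif of the FOXA type. Both run on the minus strand of GRCm38.p6 in RefSeq, F11 at chr8:45261982-45262281 and Klkb1 at chr8:45294786-45295085.
F11: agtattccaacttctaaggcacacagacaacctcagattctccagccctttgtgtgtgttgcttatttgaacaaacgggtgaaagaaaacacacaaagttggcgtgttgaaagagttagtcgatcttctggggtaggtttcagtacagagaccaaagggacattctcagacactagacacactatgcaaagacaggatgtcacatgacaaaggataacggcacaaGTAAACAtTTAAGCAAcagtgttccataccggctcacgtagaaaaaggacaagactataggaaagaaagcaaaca
Klkb1: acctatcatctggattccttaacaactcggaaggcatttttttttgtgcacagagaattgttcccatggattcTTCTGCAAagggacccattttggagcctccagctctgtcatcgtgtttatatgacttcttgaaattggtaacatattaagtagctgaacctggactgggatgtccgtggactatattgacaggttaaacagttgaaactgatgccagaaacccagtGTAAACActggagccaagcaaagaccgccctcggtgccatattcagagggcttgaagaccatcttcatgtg
F11 had 93.9, 92.2, 87.6, 82.2 and 91.7 CPM in Mttp_KO_CM and 114, 111, 122, 111 and 110.1 CPM in Mttp_flox_CM. It fell by 21.2% (log2 -0.34, SE 0.040, edgeR adjusted p = 1.8e-07), with a clear step between the groups. Klkb1 was low in these cells, with 59, 80, 49, 62 and 56 counts in Mttp_KO_CM and 89, 95, 102, 91 and 96 counts in Mttp_flox_CM. The groups did not overlap, and Klkb1 fell by 34.9% (log2 -0.62, SE 0.143, edgeR adjusted p = 0.0012).

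Mice have a pair of kininogen genes, Kng1 and Kng2, which encode the cofactor of the contact proteases and the precursor of bradykinin. Kng1 had 569, 546, 509, 522 and 539 CPM in Mttp_KO_CM against 684, 668, 664, 629 and 651 CPM in Mttp_flox_CM. It fell by 18.6% (log2 -0.30, SE 0.030, edgeR adjusted p = 1.5e-08). Kng2 averaged 187 ± 5.75 CPM in Mttp_KO_CM and 216 ± 8.86 CPM in Mttp_flox_CM, and fell by 13.5% (log2 -0.21, SE 0.032, edgeR adjusted p = 1.2e-05). The kininogen genes resemble each other and lie 28.382 kb apart on chromosome 16, and how reads that match both were counted is not given in the sources used here, so the split between them is uncertain. F12, which encodes the protease that starts the contact reaction, averaged 101 ± 6.31 CPM in Mttp_KO_CM and 103 ± 1.50 CPM in Mttp_flox_CM. It was not called, and its interval of 0.925-fold to 1.03-fold lies above the fitted folds of the other 4 contact genes.

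The serpins that block thrombin differed from each other. Serpind1 encodes heparin cofactor II and averaged 46.8 ± 4.31 CPM in Mttp_KO_CM against 57.3 ± 2.96 CPM in Mttp_flox_CM. It fell by 18.6% (log2 -0.30, SE 0.054, edgeR adjusted p = 9.5e-05), and no library of either group crossed into the other. Serpinc1 encodes antithrombin, the main plasma inhibitor of thrombin and factor Xa. It had 297, 297, 291, 279.8 and 291 CPM in Mttp_KO_CM and 296, 293, 279.9, 276 and 282 CPM in Mttp_flox_CM. The groups overlapped and the gene was not called, with an interval of 0.980-fold to 1.06-fold. Of the 8546 exon bases of Serpinc1, 2942 overlap Zbtb37, which drew 0.0682 times as many counts.

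Among the fibrinolysis genes, the precursor of plasmin and the main inhibitor of plasmin both fell. Serpinf2 encodes alpha2-antiplasmin and had 678, 660.2, 649.7, 651 and 699.7 CPM in Mttp_KO_CM against 829, 814, 834, 794 and 832 CPM in Mttp_flox_CM. It fell by 18.6% (log2 -0.30, SE 0.026, edgeR adjusted p = 1.3e-09), with a gap between the groups wider than the range of either. Plg encodes plasminogen and had 257, 233, 204, 203 and 238 CPM in Mttp_KO_CM and 258, 263, 264, 246 and 269 CPM in Mttp_flox_CM. The groups overlapped through Mttp_KO_CM replicate 1, and Plg fell by 12.7% (log2 -0.20, SE 0.047, edgeR adjusted p = 0.0019). Cpb2, the carboxypeptidase that protects fibrin from plasmin, had 317, 284, 296, 281 and 284 CPM in Mttp_KO_CM against 282, 273, 270.5, 256 and 271 CPM in Mttp_flox_CM. It rose by a log2 change of 0.11 (SE 0.033, edgeR adjusted p = 0.0097) although the edges of the groups met, and the call on Cpb2 was lost when libraries were scaled by size alone (adjusted p = 0.0826, the highest of a range that began at 0.0043). Vtn encodes vitronectin, an adhesive plasma protein that restrains the membrane attack complex. Its libraries lay at 258 to 274 CPM in Mttp_KO_CM and 252 to 257 CPM in Mttp_flox_CM, apart by a small step, and it missed the threshold (edgeR adjusted p = 0.060, interval 1.01-fold to 1.08-fold). Vtn was called higher with DESeq2 (adjusted p = 0.0361), with limma on log2(FPKM + 1) (0.0299) and log2(FPKM + 0.1) (0.0322), and in edgeR without Mttp_KO_CM replicate 2 (0.0418), in a range of 0.0299 to 0.509 over the alternatives.

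**Figure D2:**
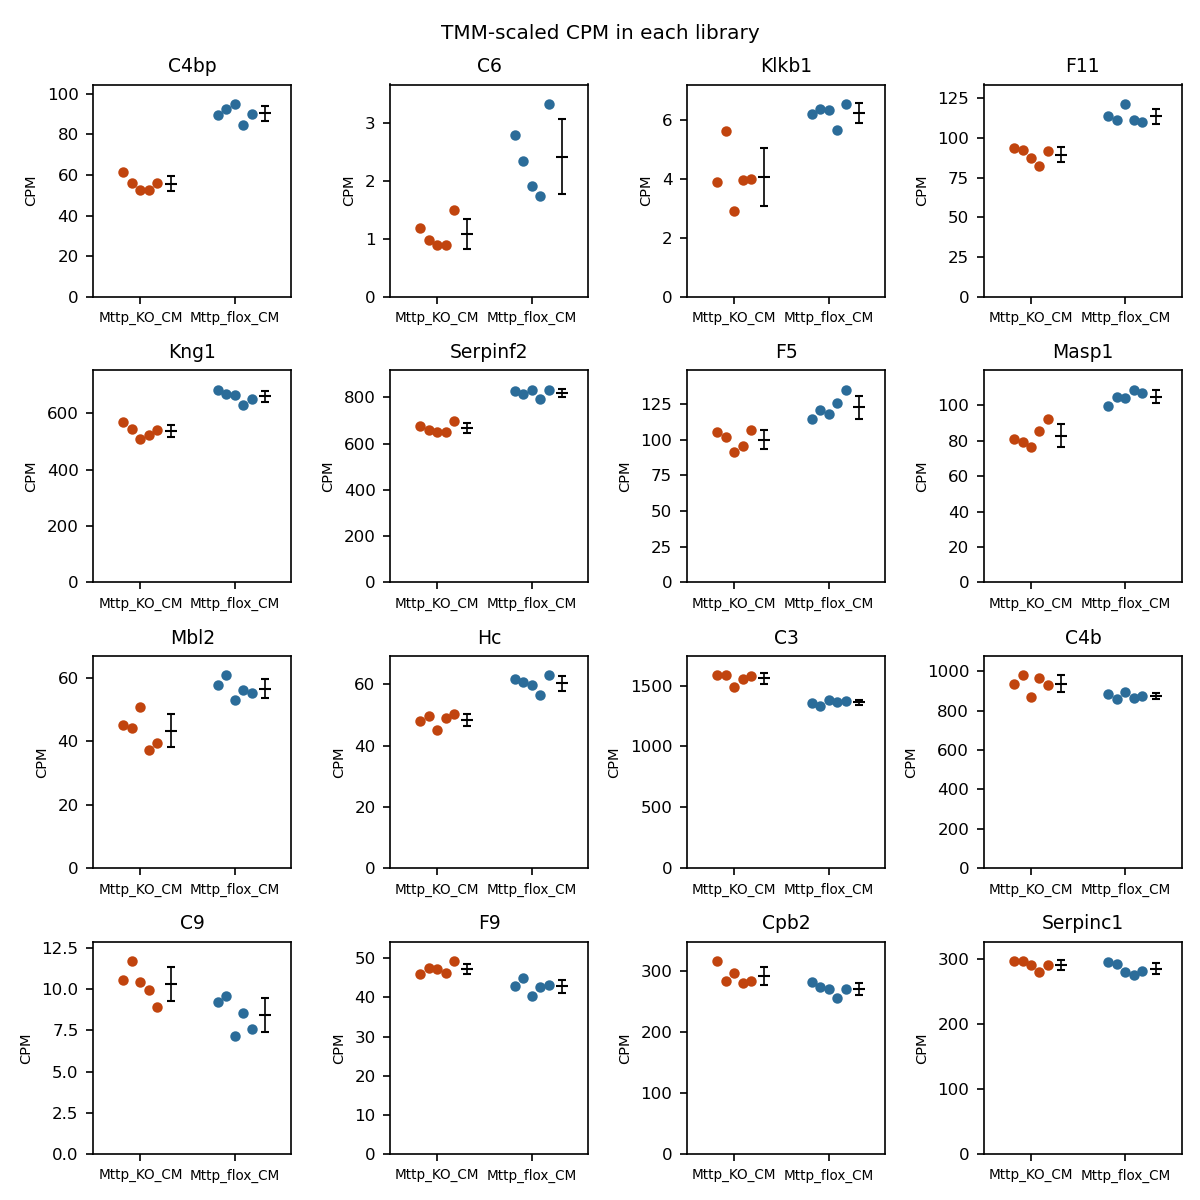
Points are CPM in single libraries of selected members, with Mttp_KO_CM left of Mttp_flox_CM in each panel, bars at the mean with SD, and a y axis from 0. C4bp libraries lie at 52.5 to 61.4 CPM in Mttp_KO_CM and 84.7 to 95.1 CPM in Mttp_flox_CM, while C3 libraries lie higher in Mttp_KO_CM.

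In the classical complement pathway, C1r and C1s are the proteases of the C1 complex and cleave C4 and C2. C4b, the mouse gene for C4, had 936, 979, 867, 968 and 931 CPM in Mttp_KO_CM against 887, 859, 894, 864 and 874 CPM in Mttp_flox_CM. It rose by 6.9% (log2 0.10, SE 0.029, edgeR adjusted p = 0.0092), although Mttp_KO_CM replicate 3 lay among the Mttp_flox_CM libraries. The call on C4b was lost when libraries were scaled by size alone (adjusted p = 0.125, the highest of a range that began at 2.5e-04). C1s1 fell to 88.4 ± 4.78 CPM in Mttp_KO_CM, against 101 ± 4.51 CPM in Mttp_flox_CM (log2 -0.19, SE 0.041, edgeR adjusted p = 5.7e-04), and the lowest Mttp_flox_CM library, at 96.1 CPM, met the highest Mttp_KO_CM library, at 96.2 CPM. C1ra, its neighbour 6.901 kb away on chromosome 6, was not called, with an interval of 0.975-fold to 1.15-fold. C2 was not called either, at a log2 change of -0.22 with an interval of -0.44 to -0.01, and it was called lower without Mttp_flox_CM replicate 4 (adjusted p = 0.0396, the lowest of a range that reached 0.305). Close copies of these genes drew few counts. C4a held 2.35% of the counts of C4a and C4b together, C1rb 1.09% of those of C1ra and C1rb, and C1s2 0.0347% of those of C1s1 and C1s2. Of the 3872 exon bases of C2, 161 overlap Zbtb12, which drew 0.269 times as many counts.

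In the lectin pathway, mannose-binding lectins recognise sugars on microbes and act through MASP proteases. Mbl2 had 45.2, 44.3, 50.7, 37.3 and 39.4 CPM in Mttp_KO_CM and 57.9, 60.8, 53.2, 56.2 and 55.1 CPM in Mttp_flox_CM. It fell by 23.3% (log2 -0.38, SE 0.062, edgeR adjusted p = 2.2e-05) without overlap. Masp1 fell by a like amount, to 82.9 ± 6.26 CPM in Mttp_KO_CM against 105 ± 3.45 CPM in Mttp_flox_CM (log2 -0.34, SE 0.044, edgeR adjusted p = 9.5e-07), also without overlap. Mbl1, the other mouse mannose-binding lectin gene, had 8.46 ± 1.05 CPM in Mttp_KO_CM and 6.99 ± 1.07 CPM in Mttp_flox_CM. Its log2 change of 0.27 was of the other sign to that of Mbl2 but was not called (edgeR adjusted p = 0.075, interval 0.03 to 0.52). Mbl1 was called higher without Mttp_KO_CM replicate 3 (adjusted p = 0.0282) or without Mttp_flox_CM replicate 1 (0.0235), the lowest of a range that reached 0.229. Masp2, the protease that cleaves C4 and C2 in this pathway, was not called (log2 0.08, interval -0.03 to 0.19), though it was called higher without Mttp_KO_CM replicate 3 (adjusted p = 0.0312, the lowest of a range that reached 0.614). The Masp2 value is uncertain, since 1817 of its 3307 exon bases overlap Tardbp, which drew 5.18 times as many counts and rose by a log2 change of 0.12 (edgeR adjusted p = 0.0015), and the counts were treated as unstranded.

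In the centre of the cascade C3, the common component, was higher, while C4bp and Cfi, which restrain the convertases, were lower. C3 is the protein on which all complement pathways converge, and C4bp encodes the chain of the C4b-binding protein that blocks the classical and lectin C3 convertase. Their promoters are shown because these members had the smallest adjusted p in each direction, and both are minus-strand sequences of GRCm38.p6 from RefSeq, C3 at chr17:57228087-57228386 and C4bp at chr1:130661569-130661868.
C3: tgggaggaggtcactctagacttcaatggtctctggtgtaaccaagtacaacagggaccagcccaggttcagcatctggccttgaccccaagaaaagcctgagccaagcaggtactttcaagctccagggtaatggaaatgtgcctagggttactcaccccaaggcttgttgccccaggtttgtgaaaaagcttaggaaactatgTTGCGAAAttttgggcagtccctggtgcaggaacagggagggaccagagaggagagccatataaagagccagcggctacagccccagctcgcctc
C4bp: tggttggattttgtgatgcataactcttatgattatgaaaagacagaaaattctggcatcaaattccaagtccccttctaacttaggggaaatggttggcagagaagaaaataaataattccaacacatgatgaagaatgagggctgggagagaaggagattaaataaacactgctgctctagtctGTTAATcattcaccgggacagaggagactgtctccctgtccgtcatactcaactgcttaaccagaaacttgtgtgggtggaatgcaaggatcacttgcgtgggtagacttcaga
C4bp had 61.4, 55.8, 52.7, 52.5 and 55.8 CPM in Mttp_KO_CM against 89.5, 92.4, 95.1, 84.7 and 89.9 CPM in Mttp_flox_CM. It fell by 38.4% (log2 -0.70, SE 0.045, edgeR adjusted p = 4.5e-12), and the groups were far apart. C3 had 1584, 1584, 1488, 1552 and 1582 CPM in Mttp_KO_CM and 1356, 1330.0, 1384, 1366 and 1377 CPM in Mttp_flox_CM. Every Mttp_KO_CM library was the higher, and C3 rose by 14.3% (log2 0.19, SE 0.024, edgeR adjusted p = 5.0e-07). Cfi encodes factor I, the protease that degrades C3b and C4b with cofactors such as C4b-binding protein. It fell to 109 ± 5.41 CPM in Mttp_KO_CM, against 133 ± 4.37 CPM in Mttp_flox_CM (log2 -0.29, SE 0.037, edgeR adjusted p = 7.4e-07), without overlap. Cfb, the protease of the alternative C3 convertase, was low at 5.92 CPM in Mttp_KO_CM and 5.65 CPM in Mttp_flox_CM. Its interval of 0.861-fold to 1.29-fold is wide at that depth.

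The terminal components form the membrane attack complex, and they moved in different directions. Hc, the gene of C5, had 48.2, 49.6, 45.0, 48.9 and 50.2 CPM in Mttp_KO_CM and 61.5, 60.7, 59.8, 56.5 and 62.9 CPM in Mttp_flox_CM. It fell by 19.8% (log2 -0.32, SE 0.043, edgeR adjusted p = 1.9e-06) without overlap. C6, which joins the complex after C5b, was the scarcest member, with 18, 14, 15, 14 and 21 counts in Mttp_KO_CM and 40, 35, 31, 28 and 49 counts in Mttp_flox_CM. The groups did not overlap and C6 fell by 55.0% (log2 -1.15, SE 0.235, edgeR adjusted p = 3.5e-04), with a 95% interval that the low counts left wide. C9 forms the pore itself, and its promoter is shown because C9 had the largest upward change of the members, on the plus strand of GRCm38.p6 in RefSeq at chr15:6445096-6445395.
C9: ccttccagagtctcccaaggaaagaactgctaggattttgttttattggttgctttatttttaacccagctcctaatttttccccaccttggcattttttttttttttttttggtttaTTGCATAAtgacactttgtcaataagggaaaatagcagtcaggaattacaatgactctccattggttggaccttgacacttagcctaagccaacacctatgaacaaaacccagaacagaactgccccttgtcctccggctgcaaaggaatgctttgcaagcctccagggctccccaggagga
C9 had 10.6, 11.7, 10.4, 9.94 and 8.92 CPM in Mttp_KO_CM against 9.21, 9.57, 7.19, 8.56 and 7.57 CPM in Mttp_flox_CM. The groups overlapped, and C9 rose by 22.6% (log2 0.29, SE 0.103, edgeR adjusted p = 0.027). The call on C9 was lost without Mttp_KO_CM replicate 1 (adjusted p = 0.0510) or replicate 2 (0.0844), without Mttp_flox_CM replicate 3 (0.0915) or its unnumbered library (0.0720), and with scaling by library size alone (0.0555), against 0.0147 at the lowest of the alternatives. The genes of the 3 chains of C8 were not called, with log2 changes of 0.06 for C8a, -0.01 for C8b and 0.09 for C8g and intervals that reach 1.33-fold for C8a.

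Levels of different members were compared as deposited FPKM, which divides by the exon length of a gene, so the order of members rests on those lengths. In Mttp_KO_CM Serpinc1, at 291 CPM and with 8546 exon bases, had 33.9 FPKM, while Cpb2, at 292 CPM, had 179 FPKM. In Mttp_KO_CM the highest were C3 at 301 ± 8.02 FPKM and Serpinf2 at 286 ± 8.97 FPKM (SD, n = 5), and in Mttp_flox_CM Serpinf2 at 351 ± 6.88 FPKM and C3 at 263 ± 4.22 FPKM, so the first and second places were exchanged. C6 was the lowest in both media, at 0.304 FPKM in Mttp_KO_CM and 0.678 FPKM in Mttp_flox_CM. In rank among the members, 16 genes kept their place, and the largest shift was that of F5, at place 24 in Mttp_KO_CM and 19 in Mttp_flox_CM. Members were abundant transcripts, with 29 of 37 in the upper part of the genes tested when split at the median level in Mttp_flox_CM and 16 among the top 10 percent. The median FPKM over members was 17.2 in Mttp_KO_CM and 16.4 in Mttp_flox_CM, against 5.10 and 5.18 over all genes tested. Calls were found at high and low levels, with 7 lower and 3 higher among the 12 most abundant members, whichever medium ranked them. Among the 12 least abundant, 6 were lower and 1 higher when ranked in Mttp_KO_CM, and 5 lower and 1 higher when ranked in Mttp_flox_CM.

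**Figure D3:**
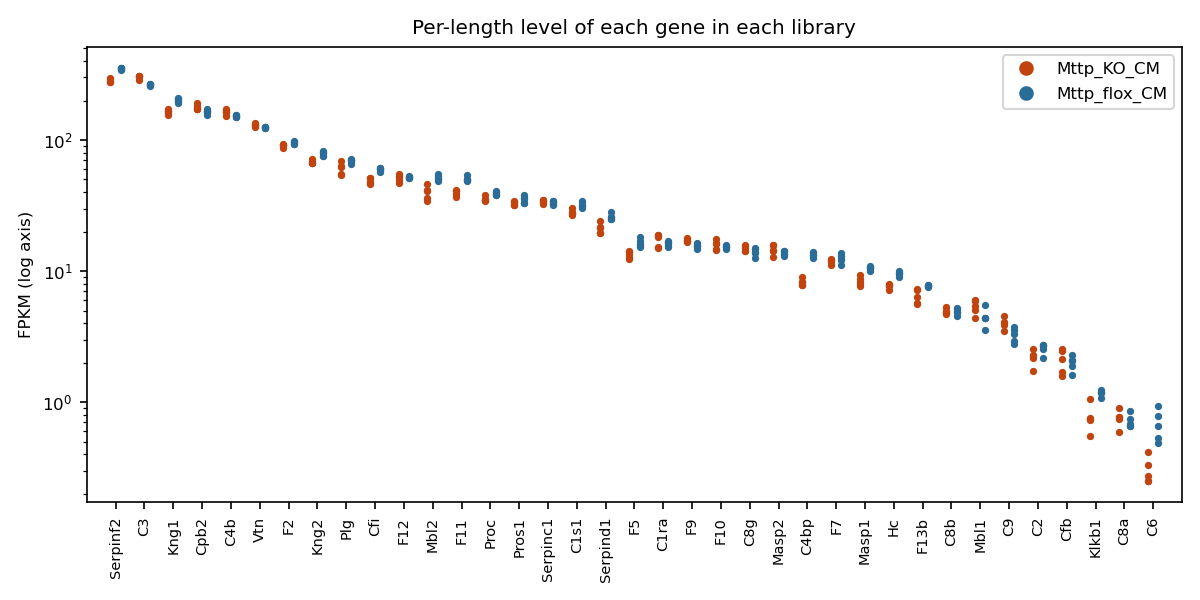
Points are the FPKM of each member in single libraries of Mttp_KO_CM and Mttp_flox_CM, on a log y axis. Genes run along the x axis by their mean level in Mttp_flox_CM. Mean levels span from C3 at 301 FPKM to C6 at 0.304 FPKM in Mttp_KO_CM.

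Summed over members, the coagulation genes came to 3586 ± 89.2 CPM in Mttp_KO_CM and 3983 ± 71.6 CPM in Mttp_flox_CM. The summed complement genes came to 3094 ± 94.3 CPM in Mttp_KO_CM and 2949 ± 33.2 CPM in Mttp_flox_CM, and Mttp_KO_CM replicate 3, at 2934 CPM, lay among the Mttp_flox_CM libraries. C3 is the largest term of that sum, and the 17 complement genes without it came to 1536 ± 53.9 CPM in Mttp_KO_CM and 1586 ± 22.2 CPM in Mttp_flox_CM, the other direction, with overlapping libraries. Markers of cell types moved as well, most lists downward and the adipocyte list upward. Hepatocyte markers summed to 54022 to 56301 CPM in Mttp_KO_CM and 65326 to 68848 CPM in Mttp_flox_CM, with 9 of 12 lower and 2 higher, and albumin itself had a log2 change of -0.22. Their log2 changes ran from -0.71 for Hal to 0.28 for Asgr1, and Cyp2e1, at 0.25, was the other marker called higher. Endothelial markers summed to 1142 to 1200 CPM in Mttp_KO_CM and 2014 to 2140 CPM in Mttp_flox_CM, with 14 of 14 lower. Macrophage markers summed to 762 to 867 CPM in Mttp_KO_CM and 1109 to 1232 CPM in Mttp_flox_CM, with 13 of 14 lower, and stellate cell markers to 66.2 to 74.2 CPM in Mttp_KO_CM and 117 to 131 CPM in Mttp_flox_CM, with 10 of 12 lower. Cholangiocyte markers summed to 291 to 357 CPM in Mttp_KO_CM and 532 to 587 CPM in Mttp_flox_CM. Of the 5 tested, 2 were lower, Spp1 by a log2 change of -0.86 and Sox9 by -0.29, and 3 were not called. Platelet markers summed to 92.2 to 104 CPM in Mttp_KO_CM and 118 to 131 CPM in Mttp_flox_CM, with 1 higher and 1 lower of 3 tested. None of these 6 marker lists had a gene at 0 in every library. Adipocyte markers summed to 227 to 244 CPM in Mttp_KO_CM and 136 to 158 CPM in Mttp_flox_CM. The 3 of 8 that passed the filter, Fabp4, Cidec and Lipe, were called higher, Fabp4 with a call lost under 6 of the 20 alternatives, while 2 of the 8, Lep among them, were at 0 in every library and Adipoq averaged 0.0491 CPM in Mttp_KO_CM and 0 in Mttp_flox_CM. Neutrophil and lymphocyte markers summed to 1.83 to 2.85 CPM in Mttp_KO_CM and 1.50 to 2.36 CPM in Mttp_flox_CM. The part of these lists in the member results was not tested. In these bulk libraries fewer cells of a type, less RNA per cell and changes of the marker genes themselves cannot be told apart.

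The rest of the pathway was read from lists of 63 other genes, of which 54 were tested, 12 higher and 26 lower, with a median log2 change of -0.15. All 3 fibrinogen chains, the substrate of thrombin, fell. Fgb fell to 3154 ± 233 CPM in Mttp_KO_CM, against 3817 ± 49.7 CPM in Mttp_flox_CM (log2 -0.28, edgeR adjusted p = 8.0e-07), and Fga and Fgg by 0.14 and 0.22 on the log2 scale. Of 19 other coagulation and fibrinolysis genes tested, 7 rose and 8 fell. Plat, tissue-type plasminogen activator, had 356, 368, 445, 380.2 and 354 CPM in Mttp_KO_CM and 135, 139.7, 137, 134 and 145 CPM in Mttp_flox_CM. It rose by a log2 change of 1.46 (SE 0.047, edgeR adjusted p = 4.0e-18), and the groups were far apart. Procr, the endothelial protein C receptor, rose by 1.08 on the log2 scale, while F8, the cofactor of factor IX, fell by 1.14 and Vwf, its carrier, by 1.00. Both were called lower under all 20 alternatives, over which the log2 change ran from -1.23 to -0.52 for F8 and from -1.08 to -0.19 for Vwf. The endothelial markers had a median log2 change of -0.95, and their part in these 2 changes was not tested. Proz and Serpina10, which encode protein Z and the inhibitor that acts with it on factor Xa, fell by 0.38 and 0.57 on the same scale.

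The vitamin K cycle, which carboxylates the vitamin K-dependent proteins, had 3 of 6 genes higher, Aifm2 and Nqo1 among them, and none lower, and its carboxylase Ggcx and reductase Vkorc1 were not called, at log2 changes of 0.02 and -0.12. The call on Nqo1 was lost under 12 of the 20 alternatives (adjusted p 0.0168 to 0.163 over all), among them those without Mttp_KO_CM replicate 1, replicate 4 or its unnumbered library, or without Mttp_flox_CM replicate 2, 3 or 4. Of 7 other complement components tested, 5 fell and 1, C1rl, rose, a call lost under 14 of the 20 alternatives. The 3 chains of C1q, which macrophages make, fell on the log2 scale by 0.82 for C1qa, 0.64 for C1qb and 0.75 for C1qc, and properdin (Cfp) by 0.53, beside the lower macrophage markers, a list that shares the C1q genes. Of 19 complement inhibitors and receptors tested, 10 fell and 1 rose. Clu, clusterin, which restrains the membrane attack complex, fell to 4344 ± 148 CPM in Mttp_KO_CM, against 5930 ± 168 CPM in Mttp_flox_CM (log2 -0.45, edgeR adjusted p = 5.7e-13). Cd55, the membrane protein that speeds the decay of C3 convertases, fell by 1.02 on the log2 scale, and Serping1 (C1 inhibitor) was not called.

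**Figure D4:**
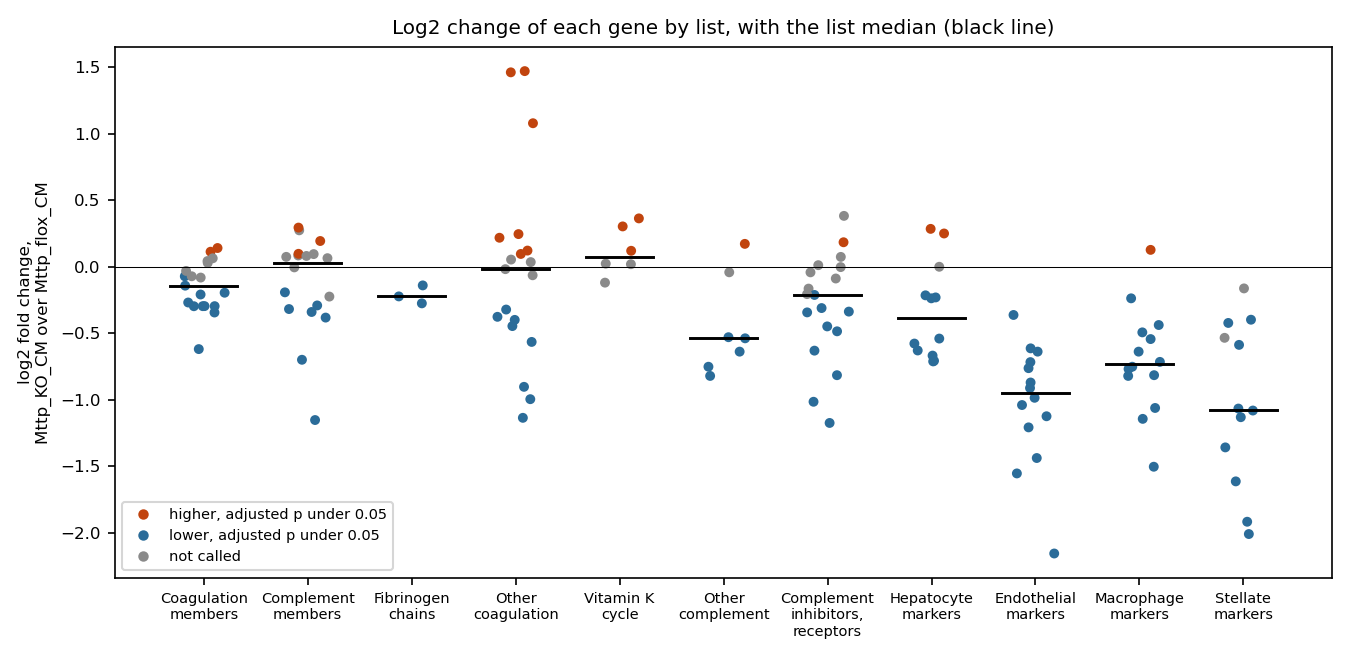
Points are the log2 fold changes, Mttp_KO_CM over Mttp_flox_CM, of the genes of each list along the x axis, with a black line at the list median. Coagulation members have a median of -0.14 and complement members of 0.03, against 0.00 over all genes tested.

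Member pairs with no other coding gene between them shared a call, except C1ra, not called, and C1s1, lower, 6.901 kb apart on chromosome 6. F11 and Klkb1 fell together, as did Kng1 and Kng2, whereas F7 and F10, 1.498 kb apart on chromosome 8, C8b and C8a on chromosome 4, and Cfb and C2, 85 bases apart on chromosome 17, were pairs without a call. C6 and C9, which are not direct neighbours, lie 1630 kb apart on chromosome 15 with 8 coding genes between them and were called in opposite directions.

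Promoters of 300 bases were available in RefSeq for 29 of the 37 members, 13 of those that fell, 4 that rose and 12 not called. None was given for Masp1, C2, Cfb, Cfi, Proc, Plg, Kng1 and C4b. Motifs were searched as exact letters on both strands. The half-site GTTAAT bound by HNF1 was in 8 of 29 member promoters, 4 of genes that fell and 4 of genes not called, against 8.24% of 27025 promoters in all. TTGCNNAA, a core of C/EBP sites, was in 10 of 29 against 12.2% of all, with 4 of genes that fell, 4 of genes that rose and 2 not called. All 4 risen members with a promoter, F9, Cpb2, C3 and C9, held it. TGTTTAC, of the FOXA type, was in F11 and Klkb1 alone, against 4.05% of all promoters, and CAAAGGTCA, of the HNF4 type, in F7 and F9 alone, against 0.544%. The HNF4 variant CAAAGTCCA and the PPAR-type element, AGGTCA repeated directly with a spacer of any base, were in no member promoter, against 0.555% and 0.0481% of all. At such low shares a match among 29 promoters is unlikely in any case, so the absence of these 2 motifs tells nothing about the members. In F11 the FOXA and C/EBP matches lie beside each other, and each match describes letters in the window and not a bound site.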

How the data were processed

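Counts per gene, deposited by the authors as whole numbers, were used for all tests, and FPKM values deposited by the authors for levels and as an alternative. Per the submitters' processing notes, HISAT2 2.0.5, featureCounts 1.5.0-p3 and build GRCm39 were used. The strand setting is not given in the sources used here, and the second strand was made with dTTP per the labels' protocols, so counts were treated as unstranded. For 8 libraries the column name fitted a label. In each group 1 further column had a number found in no label, and it was used as that group's unnumbered library on the strength of its letter.

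The fit used edgeR 4.0.16 under R 4.3.3. The low-count filter was filterByExpr (minimum count 10, minimum total 15), libraries were scaled by TMM, and the group effect was tested with glmQLFTest. SE is the log2 change divided by the square root of the F statistic. The script was tested on simulated data. In addition, 20 alternatives were run, with limma 3.58.1 on log2(FPKM + 1) and log2(FPKM + 0.1), DESeq2 1.42.0, other scalings and filters, each library left out, both unnumbered libraries left out, and a replicate block. The members, gene lists, motifs and naming rule were chosen with earlier results of these data known. By the rule, all members, the 3 fibrinogen chains, genes that share reads with a member and, from each other list, up to 4 genes with the smallest p-values are named. Other genes named outside the members, such as Vwf, Proz, Serpina10, Ggcx, Vkorc1, Serping1, C1rl and, in the closing observations, Cebpa, Cebpb, Hnf4a and most acute phase genes, were chosen after their values were seen. Promoters came from RefSeq GRCm38.p6, 250 bases before to 50 after each start, matched by symbol. Some listed genes are not reported here. No coordinates were converted between builds. Library totals limit the precision of genes such as C6.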

Additional observations from a re-analysis of the deposited data

Results flagged for a closer look

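The spread within each group was examined for every member, in 74 groups of 5 libraries, and in 3 of them a library stood apart from the others by more than 0.71 of the group's range, a share that chance gives in about 1 group in 20. F2 had 399.6 CPM in Mttp_KO_CM replicate 2, while the other Mttp_KO_CM libraries had 425 to 429 CPM. Proc had 95.2 CPM in the unnumbered Mttp_KO_CM library, while the others had 85.6 to 87.8 CPM. Serpind1 had 62.4 CPM in Mttp_flox_CM replicate 3, while the others had 55.3 to 57.0 CPM.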

How the results depend on the processing

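Of the 23 members called, 18 kept their call and direction under all 20 alternatives, and no member was called in the opposite direction under any of them. F2, C9, F9, C4b and Cpb2 lost their call under at least 1 alternative, and C2, Masp2, Mbl1, Pros1 and Vtn gained a call under at least 1. Over the alternatives, 1 to 7 members were higher and 17 to 19 lower. Among other pathway genes, Thbd, Mcfd2, Nqo1 and C1rl lost their call under 12, 13, 12 and 14 alternatives. Only scaling by library size alone moved the count of higher members by more than 1.5 times, to 1, and it shifted the median log2 change of all genes to -0.04. Under that scaling the share of higher genes among all genes called was 38.1%, against 50.1% with TMM. Replicate numbers did not pair the libraries, since the correlations of their deviations were 0.0204, -0.00473, -0.00887 and 0.0747, and a fit with a replicate block on the 8 numbered libraries gave 4 higher and 18 lower members. In that fit F9 lost its call (adjusted p = 0.0686), the log2 change of Hp gained one (adjusted p = 0.0217) and 4 acute phase genes were higher. With limma on log2(FPKM + 1), a scale that shrinks low genes, C6 changed by -0.36. Depth limits C6, Klkb1, C8a and Cfb most.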

Other observations

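Transcription factors known to drive hepatocyte genes moved in both directions, with 5 of 14 higher and 6 lower. Foxa1 rose to 25.4 ± 0.613 CPM in Mttp_KO_CM, against 18.8 ± 0.811 CPM in Mttp_flox_CM, and Foxa3 fell to 34.2 ± 1.77 CPM in Mttp_KO_CM, against 52.5 ± 3.03 CPM in Mttp_flox_CM. Their log2 changes were 0.44 for Foxa1 and -0.62 for Foxa3, with edgeR adjusted p of 7.1e-07 and 2.5e-10. Cebpb rose by 0.26 on the log2 scale, while Cebpa and Cebpd fell by 0.14 and 0.36, and the libraries of the groups did not overlap in any of these genes. Hnf4a had a log2 change of -0.08, and its call was lost under 2 alternatives.

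Of 18 genes of the acute phase response and of IL-6 signalling, 2 rose and 8 fell, and the count that rose was 4 without Mttp_KO_CM replicate 1 and 5 with no filter on low counts. The receptor chains Il6ra and Il6st fell by 0.39 and 0.32 on the log2 scale, Stat3, the transcription factor they activate, by 0.13, and Socs3, its feedback inhibitor, by 0.43. Among the plasma proteins, Lbp and Lcn2 rose by 0.21 and 0.12, Crp and Saa3 fell by 0.43 and 0.31, and Saa1 and Hp were not called, though Hp was called higher without Mttp_KO_CM replicate 3 or replicate 4 and with no filter. The acute phase genes therefore did not move in a single direction.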
